A study of Caenorhabditis elegans with 32 samples.

Results

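The fbxb genes form a gene family of the nematode Caenorhabditis elegans whose symbols carry the class name for F-box B proteins. All symbols of the form fbxb followed by a number were taken as members except fbxb-14, which gave 112 of the 46904 genes in the deposited count table. Each member matched an entry of the WBcel235 annotation, 103 as protein-coding genes and 9 as pseudogenes. The members lie on chromosomes II (62), V (16), I (11), IV (11), III (9) and X (3). Of these genes, 94 sit in 18 clusters in which neighbouring members are less than 50000 bp apart. Annotated exons of a member sum to between 379 and 2517 bp, with a median of 1037.5 bp.

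F-box proteins are the exchangeable adaptors of SCF ubiquitin ligases. The F-box motif binds a Skp1-related protein, which ties the adaptor to a cullin and a RING protein, and the remainder of the adaptor binds the protein to be marked with ubiquitin. C. elegans carries far more F-box genes than most animals, many of them in tandem arrays on chromosome arms, and most fbxb genes have no assigned substrate. The Argonaute HRDE-1 works in germline nuclei, where inherited small RNAs guide it to matching genes that it keeps silent, and loss of HRDE-1 is known to release some of its targets. The question put to the data was which fbxb copies are higher when hrde-1 is mutant.

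Poly(A) RNA of whole worms was sequenced from wild type (WT) and hrde-1 mutants, from the parents (P0) to the F3 generation, labelled normoxia or hypoxia. Each of the 16 groups had 2 libraries. According to the labels, worms grew well fed at 20 °C, and for exposure L4 larvae spent 16 h at 0.1% oxygen before returning to air at about 20%. Whether F1 to F3 worms also met low oxygen is not stated, so hypoxia names their group only, and no hrde-1 allele is given. The F2 WT normoxia columns are averages that contain the F1 and F3 WT normoxia values, so 30 libraries in 15 groups were compared.

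The 30 libraries held 9722580 to 16555982 estimated counts. Replicates are not stated to be separate cultures, so p-values reflect the spread between these libraries alone. Levels are in CPM, which divides counts by TMM-adjusted library sizes, and in whole worms fewer cells of a type cannot be told apart from less RNA per cell. RNA of hrde-1 was detected in mutants too, at 344 to 612 CPM in normoxia against 219 to 585 CPM in WT, and at 420 to 565 CPM in hypoxia against 685 to 863 CPM. Its level therefore gives no check of the genotype labels in normoxia. In hypoxia it was lower in the mutants by a log2 fold change of -0.56 ± 0.06 (standard error, edgeR, adjusted p = 1.79e-06). From normoxia to hypoxia it rose in WT by 0.93 ± 0.21 (adjusted p = 0.00356) and changed by 0.07 ± 0.10 in the mutants (adjusted p = 0.819). In P0 normoxia it was higher in the mutants, by 0.68 ± 0.18 (adjusted p = 0.0104). The hypoxia difference was therefore not taken as a check of the labels either. Markers of oocytes, sperm, cuticle, neurons, intestine and muscle were all detected in whole worms, with 1 of 35 msp genes and 3 of 163 cuticle genes at 0 in every library. The P0 WT normoxia libraries stood apart from all others, with TMM factors of 1.36 and 1.40 and summed CPM of 10 oocyte and eggshell genes of 5032 and 3316, against 7975 to 18322 in the other libraries. The P0 hrde-1 normoxia pair and the F3 hrde-1 normoxia pair each differed within the pair, as described below.

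Most fbxb genes were detected at very low levels. A count appeared in at least 1 library for 111 of the 112 members, but 68 members averaged fewer than 10 counts per library. Per kilobase of annotated exon the highest mean level over the 30 libraries belonged to fbxb-97, at 7.24 CPM per kilobase, followed by fbxb-41 at 3.72 and fbxb-7 at 3.45. The members fbxb-66 and fbxb-88 had means of 2.501 and 2.266 CPM per kilobase. Neighbours in that order overlapped widely across libraries: fbxb-41 ran from 0.258 to 14.4 CPM and fbxb-7 from 1.40 to 5.95 CPM. The rank of fbxb-97 came from the mutants, at 14.3 CPM per kilobase in normoxia and 11.5 in hypoxia, against 0.514 and 1.02 in WT. In WT normoxia fbxb-88 stood at 7.61 and fbxb-41 at 7.44 CPM per kilobase. Near-identical copies can share reads, and no sequences were compared here, so the split of counts between copies is uncertain for the whole family. Also, 19 members overlap another annotated gene.

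**Figure D1:**
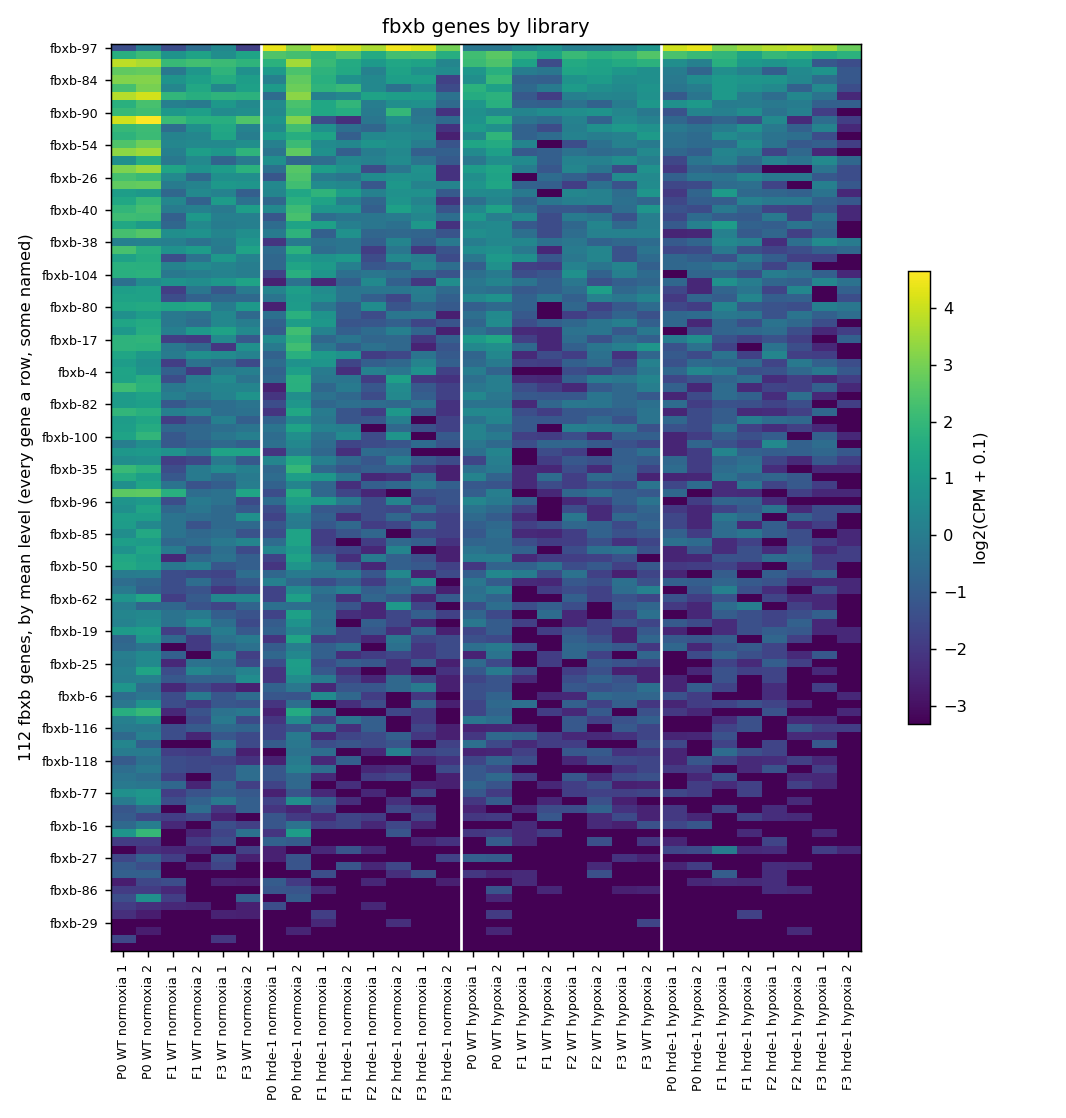
Level of each of the 112 fbxb genes (rows, ordered by mean level) in the 30 libraries (columns), as log2(CPM + 0.1), with white lines between the 4 combinations of strain and treatment. The top row, fbxb-97, is bright in the hrde-1 libraries and dark in the WT libraries, while most other rows are brightest in both P0 WT normoxia libraries and in replicate 2 of P0 hrde-1 normoxia.

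The member higher in the mutants under both treatments was fbxb-97. This protein-coding gene, WBGene00016885, lies on the minus strand of chromosome II from 1846977 to 1848161 in WBcel235, with 2 exons of 1133 bp in all. No specific substrate or function is assigned to it here. In normoxia the WT libraries held 0.281 and 0.950 CPM in P0, 0.269 and 0.622 CPM in F1, and 1.19 and 0.186 CPM in F3. The normoxia mutants held 20.6 and 9.31 CPM in P0, 20.8 and 17.9 CPM in F1, and 18.9 and 7.67 CPM in F3. The lowest mutant library was thus above the highest WT library, and the pooled means were 15.9 ± 5.83 CPM (SD, n = 6) against 0.582 ± 0.412 CPM (SD, n = 6), a ratio of 27.2. The WT normoxia libraries held only 3 to 17 counts of fbxb-97, so the size of this ratio is imprecise.

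Hypoxia gave the same separation for fbxb-97. The WT hypoxia libraries held 0.794 and 0.793 CPM in P0, 1.20 and 1.55 CPM in F1, 0.978 and 1.04 CPM in F2, and 1.16 and 1.69 CPM in F3. The hypoxia mutants held 16.7 and 20.3 CPM in P0, 8.25 and 11.3 CPM in F1, 13.4 and 14.8 CPM in F2, and 12.01 and 7.01 CPM in F3. Again all mutant libraries lay above all WT libraries, with means of 12.98 ± 4.37 CPM (SD, n = 8) and 1.15 ± 0.327 CPM (SD, n = 8), a ratio of 11.3. Among all genes with a count, mutant libraries lay wholly above WT in 2.01% in normoxia and 1.73% in hypoxia. Of the 112 members, fbxb-97 was the only one with that separation in either treatment.

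**Figure D2:**
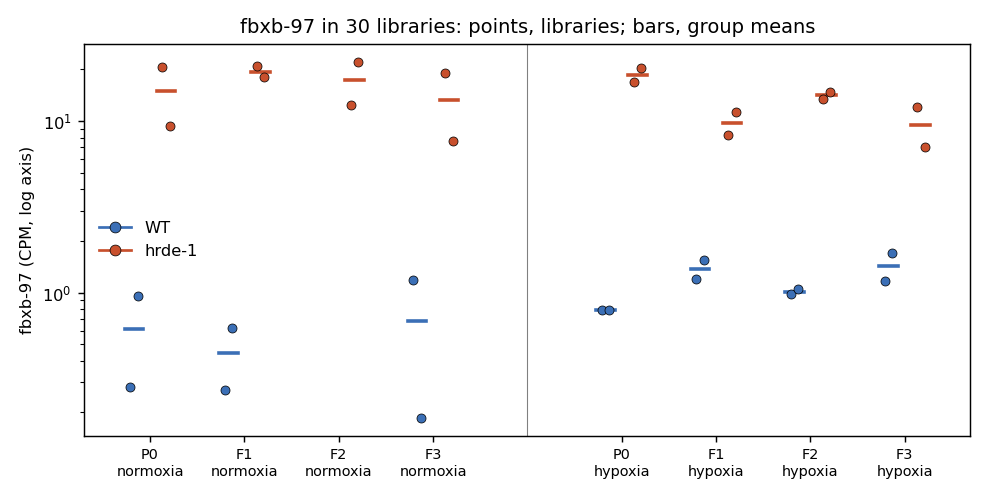
CPM of fbxb-97 on a log axis in the 30 libraries, by generation and treatment; points are libraries and bars group means, WT in blue and hrde-1 in orange. Every hrde-1 point is at 7.01 CPM or above and every WT point at 1.69 CPM or below; F2 WT normoxia is not plotted.

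In edgeR's quasi-likelihood tests, with Benjamini-Hochberg adjustment over all genes tested, the pooled log2 fold change of fbxb-97 was 4.81 ± 0.51 in normoxia (adjusted p = 0.000126) and 3.43 ± 0.24 in hypoxia (adjusted p = 1.22e-08). The gene was also called in each generation that could be compared. Its log2 fold change in normoxia was 4.58 ± 0.63 in P0, 5.38 ± 0.69 in F1 and 4.29 ± 0.63 in F3, with adjusted p of 5.29e-05, 1.49e-05 and 0.000124. For hypoxia it was 4.53 ± 0.63 in P0 (adjusted p = 0.000105) and 2.82 ± 0.60 in F1 (adjusted p = 0.0102), then 3.79 ± 0.62 in F2 (adjusted p = 0.000687) and 2.74 ± 0.58 in F3 (adjusted p = 0.00672). The F1 hypoxia call of fbxb-97 was lost without WT replicate 1, WT replicate 2 or hrde-1 replicate 2, and the F3 hypoxia call without WT replicate 1, with adjusted p of 0.141, 0.128, 0.0877 and 0.122. The P0 and F3 normoxia calls were lost when only those 4 libraries were fitted, with adjusted p of 0.067 and 0.175.

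The size of the fbxb-97 difference did not separate treatments or generations in these tests. The strain effect in hypoxia minus that in normoxia was -1.39 ± 0.57 (adjusted p = 0.0881). That difference was called in 5 of 35 alternatives, with values from -2.03 to -0.88. The effect in F3 minus that in F1 was -1.10 ± 0.94 in normoxia and -0.08 ± 0.82 in hypoxia (adjusted p = 0.556 and 0.994). Between hypoxia and normoxia the level of fbxb-97 changed by 1.06 ± 0.47 in WT (adjusted p = 0.0827) and by -0.38 ± 0.25 in the mutants (adjusted p = 0.532). The change in WT was called in 2 of 22 alternatives and that in the mutants in 0 of 26. For F2 normoxia, the F1 and F3 parts of the averaged WT columns were subtracted, which left 1.51 and 1.98 CPM against 12.4 and 22.1 CPM in the mutants. For these CPM the WT remainder was scaled to its own total without a TMM factor, unlike the mutant values. That remainder gave fbxb-97 a log2 fold change of 3.30 (adjusted p = 0.00119), and the columns as deposited gave 4.23 (adjusted p = 9.37e-05). Both inferred WT values for F2 were below every mutant library.

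The share of fbxb-97 in the summed CPM of all members ran from 3.63% to 24.8% in the normoxia mutants and from 0.103% to 1.20% in normoxia WT. In hypoxia the share ran from 11.8% to 34.9% in the mutants and from 0.700% to 5.71% in WT. None of the tested genes beside fbxb-97 was called higher in both treatments. Of 15 annotated genes within 20 kb, 9 passed the filter on low counts in each treatment. The only one called was C52E2.4, which was lower in normoxia by a log2 fold change of -1.34 and higher in hypoxia by 0.91 (adjusted p = 0.0272 and 0.0101). The adjacent copy fbxb-96, 1199 bp away on the same strand, had log2 fold changes of 0.10 in normoxia and -1.74 in hypoxia (adjusted p = 0.912 and 0.0886). For fbxb-95 the values were 0.70 and -0.78, and for fbxb-98 they were 0.68 and -0.96, none of them called.

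fbxb-97 belongs to the largest cluster, 22 members on chromosome II between 1646597 and 1863782. The 21 other members of the cluster summed to 18.4 ± 15.1 CPM in the normoxia mutants and 22.9 ± 14.5 CPM in normoxia WT (SD, n = 6 each). In hypoxia they summed to 6.58 ± 3.11 CPM in the mutants and 10.6 ± 5.42 CPM in WT (SD, n = 8 each). Both pairs of ranges overlapped. By mean CPM, 18 of the 21 were lower in the mutants in normoxia and 20 of the 21 in hypoxia. Leaving out fbxb-97, the log2 ratio of summed means was below 0 on all 6 chromosomes, from -1.29 on chromosome I to -0.45 on chromosome V in normoxia, and from -1.17 on X to -0.31 on IV in hypoxia.

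**Figure D3:**
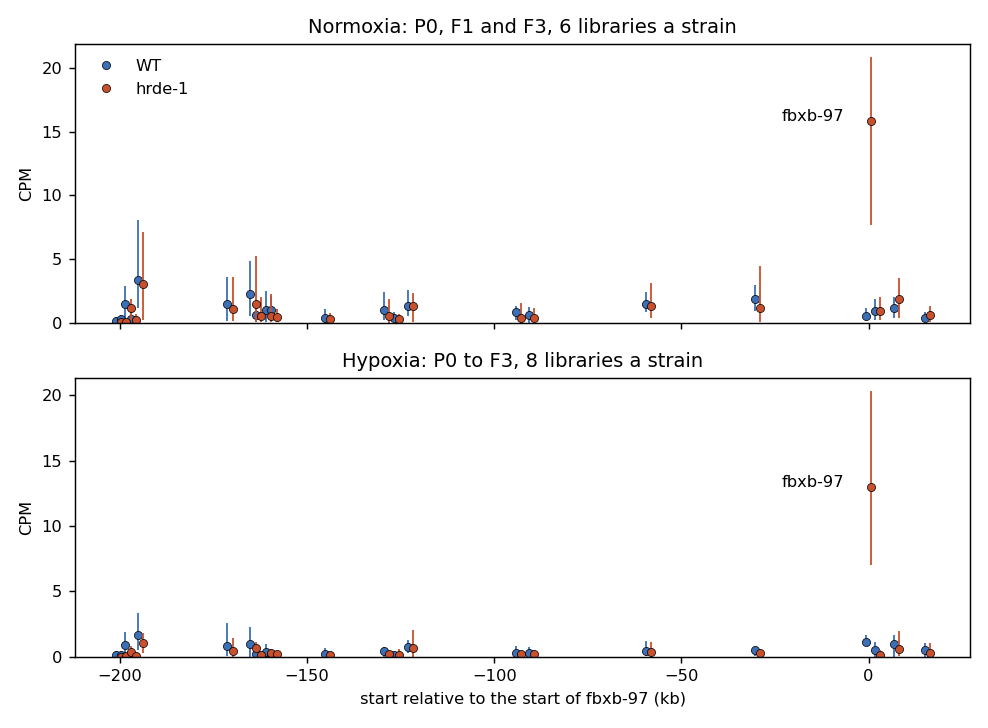
Mean CPM (points) and range over libraries (lines) of the 22 members of the chromosome II cluster, by the distance of their start from that of fbxb-97 in kb, in normoxia (top, n = 6 per strain) and hypoxia (bottom, n = 8 per strain). The hrde-1 mean of fbxb-97 stands at 15.9 and 12.98 CPM; the strains' ranges overlap for the other 21 members.

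The other member called higher in a pooled comparison was fbxb-7, a single gene outside the clusters on chromosome V (17377406 to 17379233). In normoxia WT it held 3.15 and 4.25 CPM in P0, 1.61 and 2.33 CPM in F1, and 1.40 and 2.35 CPM in F3. The normoxia mutants held 5.37 and 4.73 CPM in P0, 3.81 and 5.21 CPM in F1, and 4.81 and 3.04 CPM in F3. Within each generation both mutant libraries were above both WT libraries, although P0 WT overlapped the later mutants. The log2 fold change of fbxb-7 was 0.98 ± 0.27 (adjusted p = 0.0235), and it was called in F1 alone (1.18 ± 0.39, adjusted p = 0.0258). The F1 call was lost without F1 WT normoxia replicate 1 or F1 hrde-1 normoxia replicate 2, with adjusted p of 0.176 and 0.166. The pooled call was lost without F1 WT normoxia replicate 1 or 2, F1 hrde-1 normoxia replicate 2 or F3 hrde-1 normoxia replicate 1, with adjusted p from 0.0507 to 0.0609.

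In hypoxia fbxb-7 did not differ between the strains beyond their spread. WT libraries ran from 2.41 to 5.95 CPM with a median of 3.94, and mutants from 2.35 to 5.08 CPM with a median of 3.52. The log2 fold change was -0.22 ± 0.17 (adjusted p = 0.304). The difference between treatments was itself called for fbxb-7, at -1.16 ± 0.32 (adjusted p = 0.0194), and no other of the 96 members tested was called there, where 19.8% of all genes were. In WT, fbxb-7 was higher in hypoxia than in normoxia by 0.87 ± 0.24 (adjusted p = 0.0131). In the mutants the change was -0.31 ± 0.19 (adjusted p = 0.503).

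Of the remaining members, fbxb-103 was called higher in F1 normoxia alone, with 0.985 and 0.856 CPM in WT and 2.57 and 3.69 CPM in the mutants. Its log2 fold change there was 1.75 ± 0.58 (adjusted p = 0.026). The call of fbxb-103 was lost without any 1 of these 4 libraries, with adjusted p from 0.0538 to 0.141. The low-count gene fbxb-79 was singled out after its values were seen. It had 0 counts in all 8 WT hypoxia libraries, whereas the mutants had 3 and 3 counts in P0, 9 and 1 in F1, 1 and 0 in F2, and 2 and 1 in F3. It failed the filter on low counts in the main fit, and with no filter it was called higher in hypoxia (adjusted p = 0.00815). It also passed the filter and was called in some fits without 1 library. The normoxia libraries showed no such split for fbxb-79, with 0 to 3 counts in each strain.

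Counted over the family, higher levels in the mutants were rare. In normoxia 96 members could be tested and 2 were called higher, 2.08%, where 15% of all 15242 genes were called higher. In the same comparison 8 members were called lower, 8.33% against 11.8% of all genes. In hypoxia 51 members could be tested, of which 1 (1.96%) was called higher and 6 (11.8%) lower, against 20.6% and 17.7% of all 14018 genes. Members passed the filter through the groups where they were high, so counts over all 112 are more complete. By mean CPM, 93 of 112 were lower in the mutants in normoxia and 18 higher, and in hypoxia 94 were lower and 15 higher. That count was not made over all genes. The median log2 fold change of tested members was -0.63 in normoxia and -0.83 in hypoxia, beside -0.07 and 0.04 over all genes. No member had all mutant libraries below all WT libraries in either treatment, where 2.19% and 1.16% of all genes with a count did.

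The member called lower under both treatments was fbxb-88, a single gene on chromosome II (4826446 to 4827884). Normoxia WT held 16.9 and 25.0 CPM in P0, 4.21 and 3.19 CPM in F1, and 3.07 and 5.39 CPM in F3. The normoxia mutants held 1.61 and 8.91 CPM in P0, 0.266 and 0.109 CPM in F1, and 0.802 and 0.570 CPM in F3. Within each generation the mutants were below WT, while P0 mutant replicate 2 exceeded WT of F1 and F3. In hypoxia, fbxb-88 in WT held 1.59 and 3.09 CPM in P0, 0.740 and 0.602 CPM in F1, 1.07 and 0.474 CPM in F2, and 1.35 and 1.03 CPM in F3. The hypoxia mutants held 0.531 and 0.340 CPM in P0, 0.509 and 0.283 CPM in F1, 1.25 and 0.0922 CPM in F2, and 0.627 and 0.178 CPM in F3. The strains overlapped in F2 hypoxia only, when compared generation by generation. Its log2 fold change was -2.66 ± 0.46 in normoxia (adjusted p = 0.00308) and -1.30 ± 0.45 in hypoxia (adjusted p = 0.031). The normoxia call was lost in 1 of 23 alternatives. The hypoxia call was lost in 9 of 25 alternatives, with log2 fold changes from -1.77 to -0.86 over all of them.

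The other members called lower in normoxia were fbxb-77, fbxb-107, fbxb-101, fbxb-72, fbxb-8, fbxb-66 and the annotated pseudogene fbxb-80. Their log2 fold changes ran from -2.73 ± 0.79 for fbxb-72 to -1.46 ± 0.49 for fbxb-66 (adjusted p = 0.0259 and 0.0472). WT libraries of fbxb-72 ran from 0.856 to 2.37 CPM and mutants from 0 to 0.947 CPM, so the strains overlapped. For fbxb-66 the ranges were 3.11 to 17.2 CPM in WT and 0.605 to 9.55 CPM in the mutants. These calls were lost in 3 of 21 alternatives for fbxb-77, 6 of 23 for fbxb-101, 7 of 22 for fbxb-107, 8 of 22 for fbxb-72, 11 of 22 for fbxb-8 and for fbxb-80, and 13 of 23 for fbxb-66. In hypoxia the other members called lower were fbxb-45, fbxb-20, fbxb-44, fbxb-40 and fbxb-42, all in the chromosome II clusters. Their log2 fold changes ran from -1.97 ± 0.56 for fbxb-45 to -1.39 ± 0.47 for fbxb-40 (adjusted p = 0.0114 and 0.0295). WT libraries of fbxb-45 ran from 0.245 to 2.46 CPM and mutants from 0 to 0.717 CPM. The hypoxia calls were lost in 2 of 25 alternatives for fbxb-45, 4 of 25 for fbxb-44, 5 of 25 for fbxb-20, 9 of 24 for fbxb-40 and 15 of 25 for fbxb-42. Both sets of lower calls changed when F1 or P0 was left out. With all generations 8.33% of tested members and 11.8% of all genes were lower in normoxia, and 11.8% and 17.7% in hypoxia. In normoxia the share of all genes fell in the same fits. Without F1, 0 of 96 members were lower in normoxia, where 0.807% of all genes were, and 26 of 48 in hypoxia, where 16.2% were. Without P0, 5 of 64 were lower in normoxia and 0 of 33 in hypoxia, where 8.67% and 18.7% of all genes were.

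**Figure D4:**
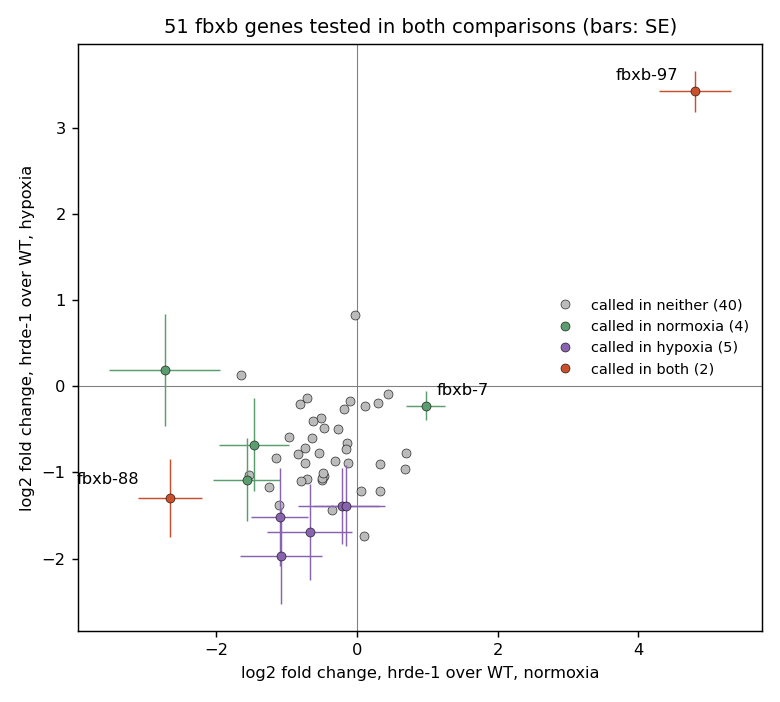
Log2 fold change of hrde-1 over WT in normoxia (x axis) and hypoxia (y axis) for the 51 members tested in both, with standard errors for members called in either. The point for fbxb-97 lies alone at the upper right, at 4.81 and 3.43, and fbxb-88 lies at -2.66 and -1.30.

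Within single generations the direction of the family changed. By mean CPM, members lower in the mutants numbered 95 of 112 in P0 normoxia, 97 in F3 normoxia, 98 in P0 hypoxia, 74 in F2 hypoxia and 92 in F3 hypoxia. In F1 the balance was the other way, with 59 members higher in normoxia and 79 higher in hypoxia. The median log2 fold change of the 96 tested members was 0.19 in F1 normoxia and 0.98 in F1 hypoxia, beside -0.24 and 0.002 over all genes. In the other comparisons it ran from -1.69 to -0.66, beside -0.06 to 0.08 over all genes. Few members were called: 3 in P0 normoxia, 4 in F1 normoxia, 5 in F3 normoxia, 2 in P0 hypoxia, 1 each in F1 and F2 hypoxia and 8 in F3 hypoxia. Among all genes 22.5%, 34.5%, 8.86%, 2.14%, 1.98%, 6.43% and 10.8% were called, in that order. The sole member called in F1 hypoxia and in F2 hypoxia was fbxb-97. In F3 hypoxia the members called lower were fbxb-41, fbxb-3, fbxb-49, fbxb-44, fbxb-37, fbxb-90 and fbxb-96, and F3 hrde-1 hypoxia replicate 2 was the library with the fewest members detected, 52. Without any 1 of the 4 F3 hypoxia libraries fewer members were called lower, and fewer of all genes were called as well. The difference between the F3 and F1 strain effects was called for no member by edgeR in either treatment, where 0.0901% of all genes were called in normoxia and 0 in hypoxia. At an unadjusted p below 0.05, 17 of 96 members passed in normoxia and 36 of 96 in hypoxia, where 16.3% and 9.16% of all genes passed. DESeq2 called 0 and 1 member.

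The summed level of the family varied widely between generations and within some pairs of libraries. Without fbxb-97, the other 111 members summed to 273 and 314 CPM in P0 WT normoxia and to 62.5 and 247 CPM in P0 hrde-1 normoxia, so that mutant pair differed more within itself than its higher library did from WT. The sums were 73.8 and 85.5 CPM in F1 WT normoxia against 98.1 and 70.9 CPM in the mutants, and 98.0 and 99.9 CPM in F3 WT normoxia against 59.6 and 27.9 CPM. In hypoxia, P0 WT summed to 87.1 and 112 CPM against 34.5 and 37.9 CPM in the mutants. F1 hypoxia was the reverse, with 37.2 and 25.5 CPM in WT against 61.7 and 47.2 CPM. F2 and F3 hypoxia mutants were again lower, at 41.0, 36.5, 32.4 and 16.1 CPM against 54.8, 56.5, 54.6 and 69.3 CPM in WT. The single library with the highest CPM belonged to P0 WT normoxia for 70 of the 112 members and to P0 hrde-1 normoxia for 25. The 70 include fbxb-58, which had 0 counts in all 30 libraries. In WT normoxia, 82 members had both P0 libraries above every F1 and F3 library, and 107 had a higher mean in P0. Of all 19863 genes with a count in these libraries, 28.9% had both P0 libraries above the others and 54% had a higher mean in P0.

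Other markers also varied between these libraries. The oocyte and eggshell genes summed to 5032 and 3316 CPM in P0 WT normoxia, and to 14335 and 7988 CPM in P0 hrde-1 normoxia. In each of these pairs the replicate with the higher fbxb sum had the lower oocyte sum. Pairs outside P0 normoxia went in both directions. The order was the same in P0 WT hypoxia. In F3 hrde-1 normoxia the replicate with the higher fbxb sum had the higher oocyte sum, at 16108 against 9676 CPM. F2 hrde-1 normoxia, at 15225 against 10240 CPM, and F3 hrde-1 hypoxia, at 11698 against 8904 CPM, followed that second order. In the pooled normoxia comparison all 10 oocyte and eggshell genes were called higher in the mutants, with sums from 7988 to 18322 CPM against 3316 to 10512 CPM in WT. In the pooled hypoxia comparison 29 of 30 tested msp genes, which encode major sperm proteins, and 57 of 123 tested cuticle genes were called higher. The msp sums ran from 247 to 2097 CPM in the mutants and from 120 to 1166 CPM in WT, and the cuticle sums from 10253 to 52049 CPM and from 8139 to 32429 CPM. The directions of these markers changed between comparisons. In pooled hypoxia 0 of the 10 oocyte and eggshell genes were called higher and 5 lower. In pooled normoxia 0 of 30 tested msp genes were called in either direction. Of those 30, 27 were called higher in P0 normoxia and 25 lower in F1 normoxia. Of 128 tested cuticle genes, 17 were higher and 0 lower in P0 normoxia, and 7 higher and 54 lower in F1 normoxia. The part of these differences in the family's lower levels was not tested.

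**Figure D5:**
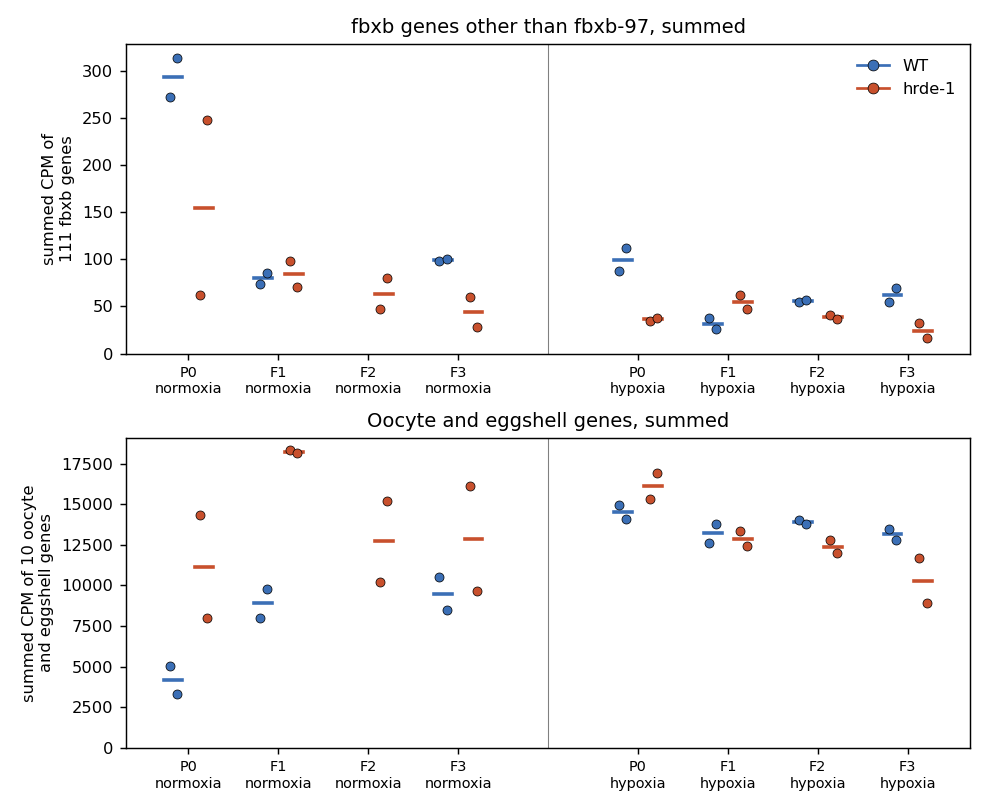
Summed CPM of the 111 fbxb genes other than fbxb-97 (top) and of 10 oocyte and eggshell genes (bottom) in the 30 libraries; points are libraries and bars group means, WT in blue and hrde-1 in orange. The fbxb sum is highest at 273 and 314 CPM in P0 WT normoxia, where the oocyte sum is lowest at 5032 and 3316 CPM.

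Treatment was compared within each strain over the same members. In WT, 91 members could be tested and 51 were called lower in hypoxia, 56.0%, where 24% of all genes were. The single member called higher was fbxb-7, 1.10%, where 21.9% of all genes were. Log2 fold changes of the lower members ran from -3.08 to -0.85 with a median of -1.51. The smallest p belonged to fbxb-88, at -2.44 ± 0.29 (adjusted p = 0.000113), followed by fbxb-66, at -2.18 ± 0.31 (adjusted p = 0.000304), then fbxb-37, fbxb-69 and fbxb-35. By mean CPM, 105 of the 112 were lower in hypoxia. The median log2 fold change of the 91 tested members was -1.17, beside -0.03 over all genes. Without P0, whose WT normoxia libraries stood apart, 17 of 57 members tested were called lower, where 15.8% of all genes were.

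In the mutants, 104 of the 112 members had a lower mean in hypoxia, but edgeR called none of 60 members tested and 0.0% of all 14458 genes. The median log2 fold change of those 60 members was -1.29, beside -0.04 over all genes. At an unadjusted p below 0.05, 30 members and 1869 genes passed, and DESeq2 called 3 members and 127 genes. The change with treatment was called as different between the strains for fbxb-7 alone, so the absence of calls in the mutants is not shown to be a different response.

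The other F-box families held genes called in both directions. The counts in the lists that follow stand beside 15% of all genes called higher and 11.8% lower in normoxia, and 20.6% and 17.7% in hypoxia. Of 142 tested fbxa genes, 9 were called higher and 11 lower in normoxia, and of 119 tested in hypoxia 26 were higher and 11 lower. The median log2 fold change of the fbxa genes was -0.16 in normoxia and 0.26 in hypoxia, beside -0.07 and 0.04 over all genes. Among the fbxc genes 8 of 44 were higher and 4 lower in normoxia, and 1 of 33 was higher and 6 lower in hypoxia, with medians of -0.29 and -0.18. The fbxc gene higher in both was fbxc-43, by 1.01 ± 0.25 and 1.60 ± 0.24 (adjusted p = 0.0135 and 0.000124).

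Of 8 other listed F-box genes, 3 were called higher in normoxia and 3 lower in hypoxia. In normoxia mec-15, required for touch receptor neurons, sel-10, which targets Notch receptors, and fsn-1, which acts at synapses, were called higher, by 0.67 ± 0.16, 0.41 ± 0.13 and 0.44 ± 0.15. In hypoxia fog-2, which controls germline sex, prom-1, which acts in meiosis, and ftr-1 were called lower, by -0.44 ± 0.07, -0.25 ± 0.09 and -0.33 ± 0.11. Of 24 tested SCF partners, 3 were higher and 3 lower in normoxia and 0 higher and 4 lower in hypoxia. These included the cullin cul-1 at -0.19 ± 0.05 and the RING protein rbx-1 at -0.24 ± 0.06 in hypoxia. In the MATH and BATH families, 12 of 63 were higher and 10 lower in normoxia, and 11 of 57 were higher and 4 lower in hypoxia. Its members bath-20, bath-45 and bath-12 were higher in both treatments, by 3.61 ± 0.31, 3.62 ± 0.34 and 2.32 ± 0.22 in normoxia and by 3.77 ± 0.21, 4.52 ± 0.26 and 2.17 ± 0.16 in hypoxia.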

How the data were processed

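The authors deposited 1 table of estimated counts per gene, not normalized, in 32 columns. Per the submitters' processing notes, the tools were edgeR, RSEM, featureCounts, Bowtie2 and cutadapt 2.5; which step each did, and the build, is not given in the sources used here. Estimated counts were rounded to whole numbers. Column names gave each column its sample. The 2 F2 WT normoxia columns are each a mean of 3 values that include the columns with the same replicate number for F1 and F3. They were left out, and 3 times the column minus those 2 was used as an alternative.

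Coordinates and lengths are those of the WBcel235 annotation of Ensembl, 1-based, matched by gene ID. CPM used TMM factors, except for the CPM of the F2 WT normoxia remainder. Low genes were removed with filterByExpr by group, and tests were quasi-likelihood tests of edgeR 4.0.16 in R 4.3.3, adjusted over all genes tested (Benjamini-Hochberg, threshold 0.05). Pooled comparisons had generation as a term, and single generations came from 1 fit of 30 libraries. After a ± sign stands the standard error for log2 fold changes and the SD for CPM. Library totals ran from 9722580 to 16555982, and 68 members averaged under 10 counts, which limits their precision.

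Every member called in a pooled strain comparison is named, with values in every library for those called in both. Also named are the 5 members highest in mean CPM and up to 5 per direction called between treatments; fbxb-79 and the members called in single generations were added after their values were seen. The values of fbxb-7 in every library were added in the same way. Members and gene lists were chosen with earlier results of these data known. Alternatives were DESeq2 1.42.0 (Wald test), its size factors in edgeR, a filter of 5 CPM in 2 libraries or none, a replicate block, averages of contrasts, fits of single comparisons, the F2 columns, and leaving out each generation or library. The F2 normoxia comparison and the difference of F3 and F1 were added after the data were seen. No sequences were compared or printed.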

Additional observations from a re-analysis of the deposited data

Results flagged for a closer look

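The strain effect of fbxb-7 differed between the treatments in a test of that difference, at -1.16 ± 0.32 on the log2 scale for hypoxia minus normoxia (edgeR, adjusted p = 0.0194). In 33 of 35 alternatives the difference was called, with values from -1.45 to -0.92 and adjusted p from 0.00382 to 0.214. The calls were lost with F1 or F3 left out.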

How the results depend on the processing

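The call of fbxb-97 as higher was kept in all 23 alternatives of the pooled normoxia comparison (log2 fold change 4.39 to 5.25) and all 26 of the hypoxia comparison (3.09 to 3.68). The fbxb-7 call in normoxia was lost in 7 of 23. No result changed its direction while called. Counts of members called depended on the processing, and the cause was not tested except that the filter of 5 CPM left 20 and 2 members to test in normoxia and hypoxia.

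In normoxia, 2 members were higher, and 1 with the F2 remainder, without F1 or without F3. The 8 lower became 4 with the 5 CPM filter, 18 with averaged contrasts, 14 with the F2 columns as deposited, 4 with the remainder, 5 without P0, 0 without F1 and 2 without F3. Among all genes 11.8% were lower, and 15.5%, 23.1%, 16.4%, 7.09%, 8.67%, 0.807% and 12.7% in that order. In hypoxia, 1 was higher, and 2 with no filter, where fbxb-79 joined fbxb-97. fbxb-79 was called higher in 8 settings, the rest of them fits without 1 library. The filter was applied again in each such fit, so the genes tested changed too. The 6 lower became 10 with DESeq2 or averaged contrasts, 0 with the 5 CPM filter or without P0, 26 without F1, 2 without F2 and 1 without F3. Among all genes 17.7% were lower, and 18.6%, 10.9%, 22.5%, 18.7%, 16.2%, 9.67% and 11.5% in that order. For the strain effect in hypoxia minus normoxia, the 1 member became 3 with DESeq2, 2 with no filter or the deposited F2 columns, 4 with averaged contrasts, 6 without P0 and 0 without F1 or F3. Among all genes 3065 were called, and 4203, 2736, 4587, 4353, 3101, 1 and 2867 in that order. Between treatments in WT, the 52 members became 14 with the 5 CPM filter and 18 without P0, and in the mutants the 0 became 3 with DESeq2 and 11 with averaged contrasts. Among all genes the WT counts were 6859, 5436 and 4894, and the mutant counts 0, 127 and 838. In single generations, fits of 4 libraries alone gave 0 for P0 normoxia (3), 10 for F1 normoxia (4), 0 for F3 normoxia (5), 15 for P0 hypoxia (2) and 5 for F3 hypoxia (8). Members tested in these fits numbered 96, 31, 49, 37 and 21. Among all genes 84 of 14059, 7328 of 12928, 35 of 13955, 1290 of 12552 and 3039 of 13144 were called, in that order. The 5 CPM filter gave 3 in F3 normoxia and 4 in F3 hypoxia, no filter or DESeq2 gave 2 in F2 hypoxia (1), and DESeq2 gave 1 for F3 minus F1 in hypoxia (0). Of all genes 1356, 1729, 1014, 1393 and 15 were called there, in that order.

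Leaving out 1 library at a time gave 1 to 2 higher and 2 to 19 lower members in normoxia, 1 to 2 and 2 to 15 in hypoxia, 1 to 7 for the difference of treatments, 33 to 48 between treatments in WT and 0 to 0 in the mutants. Among all genes 2271 to 6319, 4537 to 5507, 1908 to 5783, 5604 to 6966 and 0 to 32 were called in either direction, in that order. In single generations such a fit leaves 1 library in a group. There the number of all genes called moved, as did that of members except in F2 hypoxia. The pooled normoxia count of 8 lower stayed at 7 to 8 only without F1 hrde-1 replicate 1, F3 WT replicate 1 or F3 hrde-1 replicate 2. Without P0 hrde-1 replicate 2 it was 19, and otherwise 2 to 5. In hypoxia the 6 lower became 2 or 3 without P0 WT replicate 2, P0 hrde-1 replicate 1 or F3 hrde-1 replicate 2, and 10, 15 and 12 without F1 WT replicate 1, F1 WT replicate 2 or F1 hrde-1 replicate 1. Without P0 WT hypoxia replicate 2, 33 members were called between treatments in WT.

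Same-numbered libraries of the strains correlated in their deviations at -0.05 to 0.26, which does not decide whether the numbers pair them. Pairing across treatments or generations was not tested. With the replicate number as a block, 2 members were higher and 10 lower in normoxia, 1 and 7 in hypoxia, and 1 rather than 2 were called in P0 hypoxia. Of the 112 members, 68 averaged under 10 counts per library, and the smallest difference detectable at such counts was not tested.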
